A study of Homo sapiens with 24 samples.

Results

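The early response of H1975 cells to Pirfenidone was read from 6 of the 24 arrays of the series. The members were all arrays that the sample labels place in the 2 groups compared: 3 arrays of cells kept for 6 h with Pirfenidone at 0.75 mg per ml, and 3 arrays of cells kept for 6 h with the matching volume of PBS, the solvent. H1975 is a human lung adenocarcinoma cell line with mutated copies of EGFR, the epidermal growth factor receptor, and Pirfenidone is an oral anti-fibrotic drug used in lung fibrosis. The labels name no other agent and no engineered genetic change for either group. The study asked how Pirfenidone acts as a single agent on non-small cell lung cancer (NSCLC) cells. The remaining arrays held H1975 cells after 24 h and A549 cells, a second human lung adenocarcinoma line, after 6 h and 24 h, with the same dose and the same kind of control. The labels do not state whether the 3 samples of a group came from separate cultures, so the p-values below measure a spread between samples that may be technical. For each probe this spread, and with it each SE, was estimated over all 24 arrays of both lines and both times. It is not the spread of the 6 arrays alone.

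Each array was a single-colour Agilent expression array. A level is given as the log2 of the probe signal minus the log2 of the 75th percentile of the same array, so a level of 0 marks a probe at that percentile and a negative level marks a dimmer one. A date recorded with each array, called the run day here, paired 1 PBS array with 1 Pirfenidone array, on run days 1, 3 and 4. Which step of the work this date marks is not stated. Both arrays of a pair also shared a slide, so date and slide cannot be told apart. These pairs joined PBS Rep1 with Pirfenidone Rep3, PBS Rep2 with Pirfenidone Rep1, and PBS Rep3 with Pirfenidone Rep2, and values below are given in this order of run days. Between 65.8% and 68.5% of probes were well above background on the 6 arrays. Every Pirfenidone array lay at place 1 of its slide and every PBS array at place 2, so place and treatment cannot be told apart.

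The cells carried the markers of their label. Of 13 lung adenocarcinoma and epithelial markers, 12 were well above background on all 6 arrays, among them EPCAM, KRT7, NKX2-1 and NAPSA, and none of the 13 passed the test between the groups. Their summed signal, in units of the 75th percentile, was 385 to 490 on the PBS arrays and 402 to 450 on the Pirfenidone arrays. The fibroblast markers COL3A1, DCN, LUM and PDGFRA, the immune markers CD163, CD3E, MS4A1 and NCAM1 and the endothelial markers KDR and TEK were not well above background on any of the 6 arrays. The summed signal of the 9 fibroblast markers was 2.64 to 7.27 on the PBS arrays and 2.7 to 7.75 on the Pirfenidone arrays, and 1 of its 6 tested members, PDGFRB, changed (log2 fold change 0.97, adjusted p = 0.00176). The summed signal of the 9 immune markers was 2.63 to 4.12 with PBS and 2.61 to 4.42 with Pirfenidone, and that of the 5 endothelial markers 0.0652 to 0.0784 and 0.0664 to 0.101.

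Cells answer a shortage of amino acids, unfolded protein in the endoplasmic reticulum, a lack of heme or viral RNA with a shared programme, the integrated stress response. Kinases that sense these states phosphorylate a translation initiation factor, bulk protein synthesis slows, and the messenger RNA of the transcription factor ATF4 is translated more. ATF4 and its partners of the C/EBP family then raise genes for amino acid uptake and synthesis, for transfer RNA charging and for redox balance, together with the factor DDIT3, also named CHOP, which is linked to cell death under lasting stress. Pirfenidone itself is best known for lowering the output of the TGFβ pathway, in which SMAD proteins carry the signal of the cytokine TGFβ to target genes such as CCN2.

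At 6 h the response was limited in size and mostly upward. Of 23827 probes tested, 226 (0.949%) passed an adjusted p of 0.05 together with a 2-fold change, 172 of them higher and 54 lower with Pirfenidone. By gene, read from its brightest probe, 125 of 16009 genes (0.781%) passed both limits as higher and 40 (0.25%) as lower. With the adjusted p alone, 813 genes (5.08%) were higher and 416 (2.6%) were lower, and "rose" and "fell" below refer to this limit. Counts of list members that rose or fell at 6 h are to be read beside these 2 shares. The test was limma's moderated test with the run day as a block. The median log2 fold change over all probes was 0.05.

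The called changes were of one direction in nearly all pairs. The difference had the same sign on all 3 run days in 225 of the 226 called probes. Of all genes, 33.6% were higher and 22.7% lower on all 3. In 189 of the 226 the 3 Pirfenidone arrays did not overlap the 3 PBS arrays, which held for 17.7% of all probes tested. The calls were made from these same arrays, so both counts are largely set by the choice of probes and are no separate evidence. Among called probes that were well above background on at least 1 array of each group, 11 rose by more than 4-fold and 2 fell by more than 4-fold. The pair of run day 1 showed the widest gaps: the median difference of the probes called higher was 1.49 log2 units on run day 1, 1.17 on run day 3 and 1.20 on run day 4. Without the PBS array of run day 1, Rep1, 133 probes passed, and without both arrays of that run day 135 passed. Without the run-day block 117 probes passed, 95 of them higher. After background correction by normexp, which moved the median of all probes to 0.29, 182 of 191 called probes were higher, a share of 95.3% against 76.1%.

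**Figure D1:**
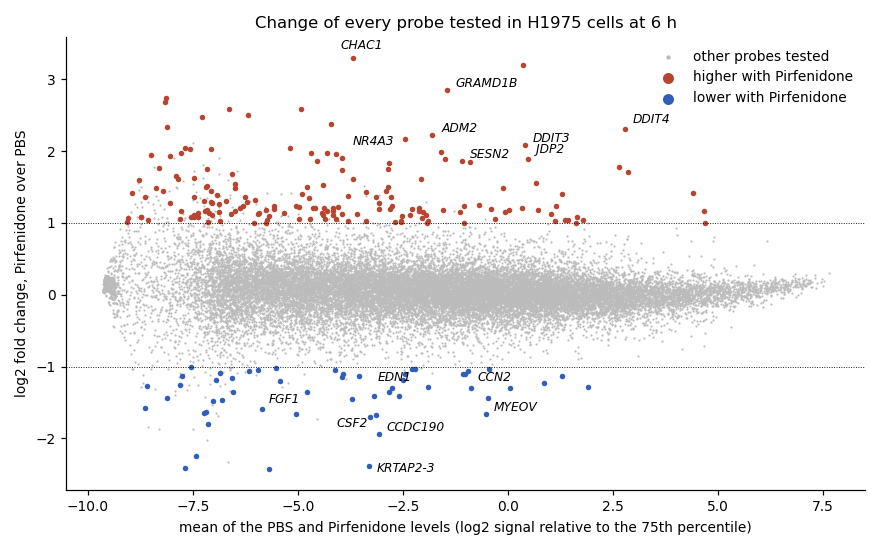
Change of each of the 23827 probes tested (y axis, log2 fold change of Pirfenidone over PBS at 6 h) against its mean level (x axis, log2 signal relative to the 75th percentile of the array). The 172 probes called higher are red, the 54 called lower blue, other probes grey, and dotted lines mark a 2-fold change; the 2 probes of CHAC1 have the largest increases of named probes with a level above background on all 6 arrays.

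CHAC1, which encodes an enzyme that breaks down glutathione, had the largest increase. Its brighter probe, at chr15:41248631-41248690 (hg19), read -1.34, -1.15 and -1.21 with PBS and 2.54, 1.72 and 1.63 with Pirfenidone, a log2 fold change of 3.20 ± 0.36 (SE, adjusted p = 0.00019). All Pirfenidone arrays lay far above all PBS arrays, and a second CHAC1 probe gave 3.30 ± 0.31 (adjusted p = 5.11e-05). GRAMD1B, a sterol carrier between the endoplasmic reticulum and the plasma membrane, read -3.94, -2.30 and -2.37 with PBS and 0.23, -0.08 and -0.19 with Pirfenidone, a rise of 2.86 ± 0.29 (adjusted p = 9.31e-05). Its PBS level of run day 1 was the lowest of the 3, and its Pirfenidone levels were close to each other. SCARA5, a scavenger receptor that takes up ferritin, rose by 2.58 ± 0.49 (adjusted p = 0.00611) and the long non-coding RNA FAM87A by 2.38 ± 0.17 (adjusted p = 7.31e-06). A second SCARA5 probe, which was well above background on 1 Pirfenidone array and on no PBS array, gave 0.33 and did not pass.

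Further large increases among genes well above background on all 6 arrays, with groups that did not overlap, included the following. DDIT4, an inhibitor of the growth kinase mTORC1, read 1.92, 1.59 and 1.36 with PBS and 4.45, 3.62 and 3.69 with Pirfenidone. NR4A3, an orphan nuclear receptor, read -4.10, -3.26 and -3.25 with PBS and -0.16, -1.92 and -2.03 with Pirfenidone, so that most of its spread came from run day 1. The log2 fold change of NR4A3 was 2.17 ± 0.42 (adjusted p = 0.00686), and it lay between 1.28 and 2.64 over the alternative blocks, scalings and left-out arrays. LYPD3, a surface protein anchored in the membrane by a lipid, rose by 1.98, DMBT1, a mucin-like scavenger protein, by 1.98, C11orf96 by 1.97, CXCR3, a chemokine receptor, by 1.95, and ECM2, an extracellular matrix protein, by 1.91 (adjusted p between 0.000293 and 0.0247). C11orf96 differed by 3.47 on run day 1 and by 1.26 and 1.20 on the others, and it passed under 9 of 18 alternatives, with values from 1.23 to 2.36. A second CXCR3 probe gave 0.17 (adjusted p = 0.352), whereas a second LYPD3 probe gave 1.90 (adjusted p = 0.000378).

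The decreases below are of genes well above background on all 6 arrays, with groups that did not overlap. KRTAP2-3, a keratin-associated protein whose family members are nearly alike in sequence and may share signal, read -1.60, -2.43 and -2.33 with PBS and -3.80, -4.76 and -4.94 with Pirfenidone, a fall of -2.38 ± 0.19 (adjusted p = 1.37e-05). CCDC190 fell by 1.94 on the log2 scale (adjusted p = 1.16e-05), and MYEOV, a gene often amplified in tumours, read 0.41, 0.20 and 0.30 with PBS and -1.39, -1.36 and -1.31 with Pirfenidone (adjusted p = 3.85e-05). The MYEOV arrays spread little within either treatment. CSF2, the growth factor GM-CSF, fell by 1.68 (adjusted p = 0.0142), and FGF1, a fibroblast growth factor, by 1.59 (adjusted p = 3.16e-05). After normexp, FGF1 stood at 0.29, KRTAP2-3 at -1.18 and CSF2 at -0.80, and none of these passed. CCDC190 missed the limit without the run-day block (adjusted p = 0.121), and CSF2 passed under 9 of 18 alternatives. Other FGF1 probes gave -0.49 and 0.26, neither of which passed.

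EDN1 and EDN2 encode endothelins, peptides that act on blood vessels, and both fell. EDN1 read -0.16, 0.32 and 0.57 with PBS and -1.69, -1.07 and -0.84 with Pirfenidone, a change of -1.44 ± 0.18 (adjusted p = 0.000347), and its second probe changed by -1.35 ± 0.16 (adjusted p = 0.000214). No Pirfenidone array reached the lowest PBS array. EDN2 changed by -1.46 ± 0.39 (adjusted p = 0.0386), and it passed under 4 of 18 alternatives, with values from -1.62 to -0.63. IL24, a cytokine of the IL10 family, fell at both probes, by 1.41 and by 1.30, RTP3, a receptor chaperone, fell by 1.35 (-0.02 after normexp, where it did not pass), and CCN2, the connective tissue growth factor, fell by 1.30.

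**Figure D2:**
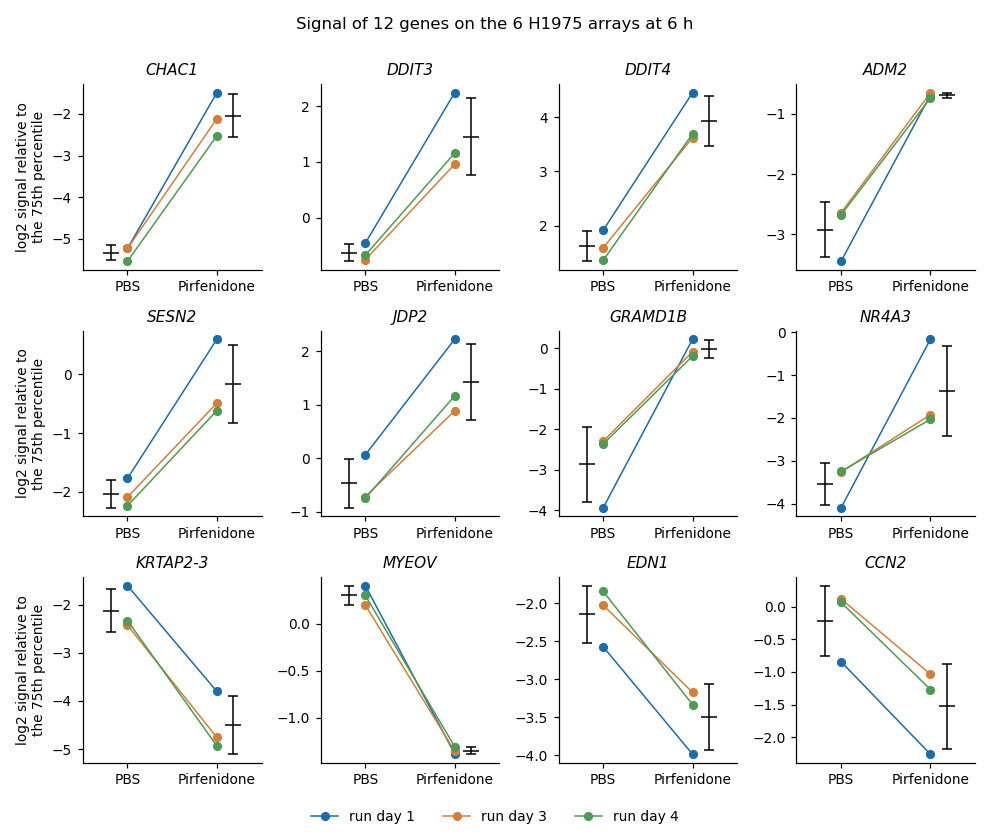
Level of 12 genes on the 6 arrays (y axis, log2 signal relative to the 75th percentile, with its own range in each panel); a line joins the PBS and Pirfenidone arrays of a run day, and black bars give the mean and SD of 3 arrays. All lines of the first 8 genes go up and all lines of the last 4 go down; NR4A3 and GRAMD1B rise most on run day 1. For CHAC1 and EDN1, which had 2 called probes, the dimmer probe is drawn.

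Of 26 tested members of a list of integrated stress response genes, 18 rose, 14 of them measured above background in both groups and by at least 2-fold, and none fell. The median log2 fold change of the list was 1.08 (1.01 with INHBE, which has only a bound, at that bound), against 0.05 over all genes. It was 1.63, 0.90 and 1.02 on the 3 run days. The transcription factor ATF4, which heads the response, read 5.74, 5.80 and 5.82 with PBS and 6.42, 6.61 and 6.57 with Pirfenidone, a rise of 0.75 ± 0.11 (adjusted p = 0.00154) that stayed under 2-fold. The list kept 13 to 18 rising members and no falling one under each scaling, with no block and without any of the 3 pairs. This list, like the others, was chosen with earlier results of these data known, so the choice itself may raise these counts and the median.

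The factors and partners of ATF4 rose with it. DDIT3 read -0.46, -0.76 and -0.67 with PBS and 2.24, 0.96 and 1.16 with Pirfenidone, a log2 fold change of 2.08 ± 0.31 (adjusted p = 0.00154). JDP2, a leucine zipper repressor of AP-1 sites, read 0.07, -0.71 and -0.74 with PBS and 2.23, 0.89 and 1.17 with Pirfenidone, a change of 1.89 ± 0.16 (adjusted p = 3.11e-05). For both genes the pair of run day 1 reached the highest Pirfenidone level. NUPR1, a small chromatin protein induced by stress, rose by 1.70, CEBPB by 0.82 and CEBPG by 0.67 (adjusted p of 0.000212, 0.00938 and 0.00644). ATF3, a stress-induced repressor, rose by 1.02 (adjusted p = 0.0369). Other ATF3 probes gave 1.12, 0.89 and 0.11, of which the last did not pass (adjusted p = 0.744). TRIB3, a pseudokinase that restrains ATF4, read 4.32, 4.18 and 4.08 with PBS and 5.38, 5.17 and 5.03 with Pirfenidone, a change of 1.0 ± 0.20 (adjusted p = 0.00853). ATF5 was the member with the lowest value, -0.53 (adjusted p = 0.0677).

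Other members that rose lower growth signals, serve redox balance or are secreted. SESN2, a leucine sensor that inhibits mTORC1, read -1.77, -2.09 and -2.23 with PBS and 0.60, -0.49 and -0.61 with Pirfenidone, a change of 1.86 ± 0.29 (adjusted p = 0.00186), beside the 2.30 ± 0.36 of DDIT4 (adjusted p = 0.00191). ADM2, a peptide hormone of the calcitonin family, rose by 2.23 ± 0.26 (adjusted p = 0.000219) to nearly equal Pirfenidone levels of -0.69, -0.65 and -0.73. A second ADM2 probe gave 0.42 (adjusted p = 0.0582). GDF15, a stress cytokine, rose by 1.78 ± 0.21 (adjusted p = 0.000213), SLC7A11, the cystine carrier, by 1.56 ± 0.26 (adjusted p = 0.00262), and CTH, which makes cysteine, by 1.40 ± 0.15 (adjusted p = 0.000138). BBC3, a BCL2 family member that promotes cell death and is also named PUMA, rose by 1.48 ± 0.14 (adjusted p = 5.11e-05). KLHL24, an adaptor of a ubiquitin ligase, rose by 1.15, and INHBE, an activin subunit that was not well above background on any PBS array, by at least 1.93-fold. The 8 members that did not pass were VLDLR, TNFRSF10B, CBS, STC2, XPOT, PPP1R15A, EIF4EBP1 and ATF5, with values between -0.53 and 0.47. PPP1R15A, which restores translation during the response, gave 0.06 (adjusted p = 0.852), and EIF4EBP1 read 2.89 on the Pirfenidone array of run day 3 against 3.88 to 4.41 on the other arrays.

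**Figure D3:**
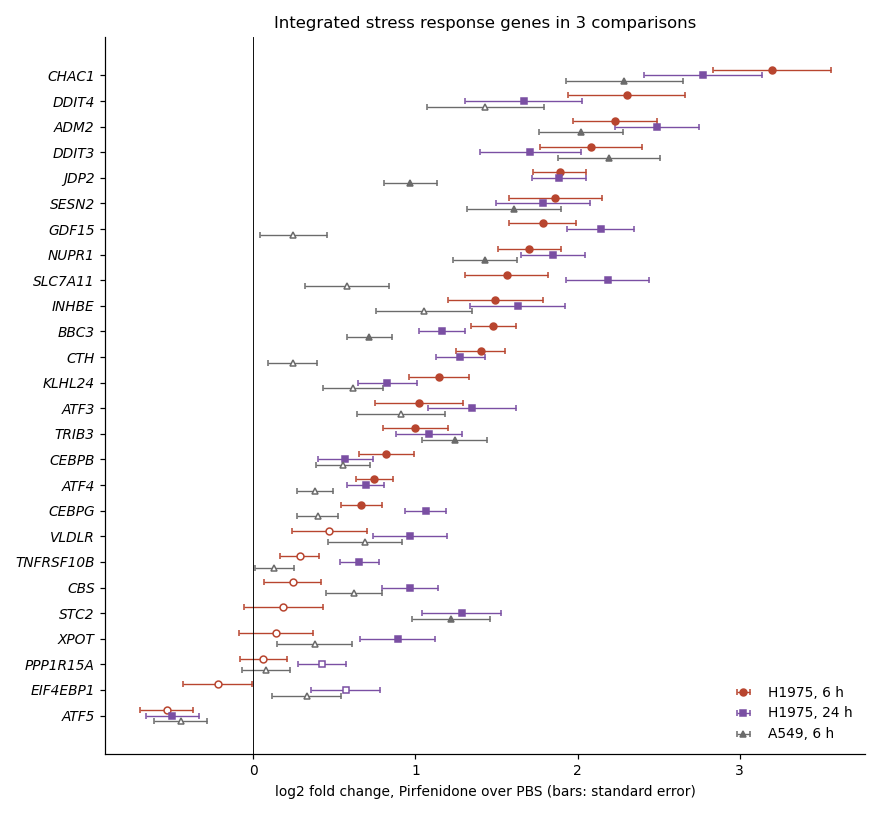
Log2 fold change of Pirfenidone over PBS (x axis, bars are standard errors) for the 26 tested integrated stress response genes in H1975 cells at 6 h (red circles), H1975 cells at 24 h (purple squares) and A549 cells at 6 h (grey triangles); filled symbols passed an adjusted p of 0.05, and the fitted value of INHBE, near background with PBS, is no measured size. Red symbols are filled for 18 genes, all above 0; of the other 8, VLDLR, TNFRSF10B, CBS, STC2 and XPOT are filled above 0 and ATF5 below 0 at 24 h.

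ATF4 and C/EBP proteins bind together at sites of the form TGATGNAA, and the stretches around such letters are shown here for 5 genes that rose, since they let the reader see the element beside the values above. The 250 bases before each start site were read from RefSeq promoters (GRCh38.p14) and searched on both strands. Capitals mark the match, which reads TTGCATCA where it lies on the other strand.
CHAC1: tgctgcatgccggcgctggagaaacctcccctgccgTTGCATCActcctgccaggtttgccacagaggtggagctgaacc
JDP2: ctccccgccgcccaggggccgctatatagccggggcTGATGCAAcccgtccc
ASNS: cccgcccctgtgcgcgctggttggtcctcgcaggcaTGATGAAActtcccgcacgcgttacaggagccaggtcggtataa
ATF3: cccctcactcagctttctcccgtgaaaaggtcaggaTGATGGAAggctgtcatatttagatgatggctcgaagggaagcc
HERPUD1: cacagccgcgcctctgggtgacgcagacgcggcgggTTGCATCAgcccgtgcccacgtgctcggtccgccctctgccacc
The 5 stretches lie at chr15:40953226-40953305 on the plus strand, chr14:75427970-75428021 on the plus strand, chr7:97872433-97872512 on the minus strand, chr1:212565180-212565259 on the plus strand and chr16:56931930-56932009 on the plus strand, and the matches begin 209, 16, 68, 191 and 176 bases before the start site. Such letters were held by 4 of the 21 integrated stress response genes with a promoter listed (ATF3, CEBPG, CHAC1 and JDP2), and by 11 of 99 genes with a probe called higher (11.1%). Among genes with a probe called lower, 0 of 34 held it. Over all tested genes with a promoter listed the share was 2.53%, and over all promoter windows listed it was 3.14%. A match is a description of the letters in this window and not a measured binding site.

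Genes that supply amino acids moved in part. Of 17 genes for serine, one-carbon and proline synthesis, 6 rose and none fell, with a median of 0.19. ASNS, asparagine synthetase, read 4.21, 3.99 and 4.01 with PBS and 5.45, 5.07 and 5.20 with Pirfenidone, a change of 1.17 ± 0.17 (adjusted p = 0.00116). PHGDH, the entry enzyme of serine synthesis, rose by 1.04 and PSAT1, the next enzyme, by 0.83 (adjusted p of 0.0114 and 0.00557), so 2 of the 6 passed the 2-fold limit. GPT2, MTHFD2 and PSPH rose by 0.76, 0.61 and 0.42.

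Of 13 amino acid transporters, 4 rose and 2 fell. SLC1A4, a carrier of serine and alanine, rose by 1.23 ± 0.21 (adjusted p = 0.00349), SLC6A9, a glycine carrier, by 0.69, and SLC7A5 and SLC3A2, the 2 chains of the leucine carrier, by 0.59 and 0.51. SLC7A6 fell by 0.80 and SLC36A1 by 0.41. Of 20 cytosolic aminoacyl-tRNA synthetases, 4 rose and none fell: AARS1 by 0.63 ± 0.07 (adjusted p = 0.000212), CARS1 by 0.51, WARS1 by 0.39 and YARS1 by 0.32. The median of the synthetases was 0.14.

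Genes of the unfolded protein response gave few calls, and most were higher on all 3 run days. Of 23 endoplasmic reticulum chaperones and related genes, 2 rose and none fell, with a median of 0.21 against 0.05 over all genes. After normexp the median was 0.17, against 0.29 over all probes. By limma's test 5 were higher and 0 lower at an unadjusted p under 0.05. HERPUD1, a factor of protein disposal at the endoplasmic reticulum, read 3.50, 3.74 and 3.86 with PBS and 4.97, 5.25 and 5.12 with Pirfenidone, a change of 1.41 ± 0.23 (adjusted p = 0.00225). XBP1, a transcription factor of the response, rose by 0.75 (adjusted p = 0.0412). HSPA5, the main chaperone of the compartment, gave 0.31 ± 0.17 (adjusted p = 0.334), and DNAJB9 0.98 (adjusted p = 0.333). Of the 23 members, 15 were higher on all 3 run days and none was lower on all 3, against 33.6% and 22.7% of all genes.

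Other stress programmes showed few calls, where 5.08% of all genes rose and 2.6% fell. In lists this short a count of 0 lies near these shares. None of 21 heat shock genes passed limma's test in either direction (0 higher and 4 lower at an unadjusted p under 0.05), and HSPA1A, whose probe may also read its near-identical neighbour HSPA1B, gave 0.13 ± 0.22 (adjusted p = 0.796). None of 10 genes of the metallothionein list passed (1 higher and 0 lower at an unadjusted p under 0.05). Among 23 targets of NRF2, the factor of antioxidant defence, SLC7A11 and AKR1C1 rose (1.56 and 0.55). The first of these is also in the stress list above. Of the 23, 6 were higher and 0 lower at an unadjusted p under 0.05. HMOX1, heme oxygenase, gave 0.41 ± 0.18 (adjusted p = 0.191) and NQO1 0.04 ± 0.07 (adjusted p = 0.819).

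Among 11 targets of the aryl hydrocarbon receptor, a sensor of aromatic compounds, 1 rose and 1 fell. CYP1A1, the enzyme most tied to this receptor, read -2.67, -1.64 and -1.43 with PBS and -4.20, -2.48 and -2.64 with Pirfenidone, a change of -1.19 ± 0.31 (adjusted p = 0.0348). The 2 groups overlapped because the levels of run day 1 were lower in both, while each pair fell. CYP1B1, a related enzyme, gave 0.34 ± 0.31 (adjusted p = 0.577), and SLC7A5 rose as above.

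Of 25 targets of p53, 5 rose and 3 fell. The 2 with a 2-fold rise, SESN2 and BBC3, are also members of the stress list. CDKN1A, the cell cycle inhibitor p21, read -3.34, -3.53 and -3.53 with PBS and -2.42, -2.86 and -2.95 with Pirfenidone, a rise of 0.73 ± 0.20 (adjusted p = 0.0438), and DDB2 and XPC, both of DNA repair, rose by 0.33 and 0.27. AEN, a nuclease, fell by 0.98 (adjusted p = 0.000532), PLK2 by 0.63 and TRIAP1 by 0.42. MDM2, the ligase that degrades p53, gave -0.31 ± 0.11 (adjusted p = 0.129). In the BCL2 family of 16 genes, BBC3 and PMAIP1 rose by 1.48 and 0.45, both promoters of cell death, and the survival gene BCL2L1 fell by 0.62 (adjusted p = 0.0124). BMF, another promoter of cell death, had the lowest value, -0.69 (adjusted p = 0.0511), with each Pirfenidone array below each PBS array. A second BMF probe, well above background on all 6 arrays, gave 0.28 (adjusted p = 0.87). On all 3 run days 6 of the 16 were higher and 8 were lower, against 33.6% and 22.7% of all genes.

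Members of the TGFβ list passed in both directions, and the median of its 31 genes was 0.04, against 0.05 over all genes. Among the signal carriers, SMAD3 read 0.62, 0.96 and 1.0 with PBS and -0.06, 0.51 and 0.65 with Pirfenidone, a fall of -0.49 ± 0.11 (adjusted p = 0.0172). SMAD2 rose by 0.37 ± 0.10 (adjusted p = 0.0395) and SMAD4 gave -0.04 ± 0.15 (adjusted p = 0.91). For SMAD2 and SMAD3 the arrays of the groups overlapped while each pair moved the same way. The ligand gene TGFB1 gave -0.05 ± 0.09 (adjusted p = 0.795), and the inhibitors SMAD7 and BAMBI gave 0.03 and 0.30 (adjusted p of 0.896 and 0.199), whereas SMAD6, another inhibitor, rose by 0.56.

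Targets of the pathway went up and down. CCN2 read -0.84, 0.12 and 0.07 with PBS and -2.26, -1.03 and -1.27 with Pirfenidone, a change of -1.30 ± 0.16 (adjusted p = 0.000351) that missed the limit without the run-day block (adjusted p = 0.185). THBS1, a matrix protein that activates TGFβ, fell by 0.81 and SMURF2, a ubiquitin ligase for SMAD proteins and receptors, by 0.64. The ID genes, inhibitors of differentiation that BMP signals also raise, went the other way: ID2 rose by 1.04 ± 0.09 (adjusted p = 3.11e-05), ID1 by 0.75 and ID3 by 0.34. The repressors TGIF1 and BHLHE40 rose by 0.73 and 0.47. COL1A1, the main fibrillar collagen, gave 0.01 ± 0.21 (adjusted p = 0.979), and the collagen chaperone SERPINH1 0.03 ± 0.11 (adjusted p = 0.92). In all, 7 of the 31 rose and 4 fell; without single pairs 1 or 2 rose and 2 fell.

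Immediate early genes are switched on by growth factors within minutes. Of 25 members 3 rose and 2 fell, with a median of -0.11. Beside NR4A3, NR4A2 of the same receptor family rose by 1.11 ± 0.26 (adjusted p = 0.0182) and KLF4 by 0.75 (adjusted p = 0.0304). FOSL1, an AP-1 subunit downstream of EGFR and MAP kinases, read 1.91, 1.83 and 1.78 with PBS and 0.29, 1.02 and 0.81 with Pirfenidone, a change of -1.13 ± 0.31 (adjusted p = 0.0397). FOS gave -0.20 ± 0.22 (adjusted p = 0.655), EGR1 -0.27 ± 0.17 (adjusted p = 0.388) and MYC -0.29 ± 0.13 (adjusted p = 0.221). Among 20 feedback genes of the MAP kinase pathway, DUSP6, a phosphatase of ERK, rose by 0.67, and the ephrin receptors EPHA2 and EPHA4 fell by 0.61 and 0.49. Over all genes 5.08% rose and 2.6% fell.

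**Figure D4:**
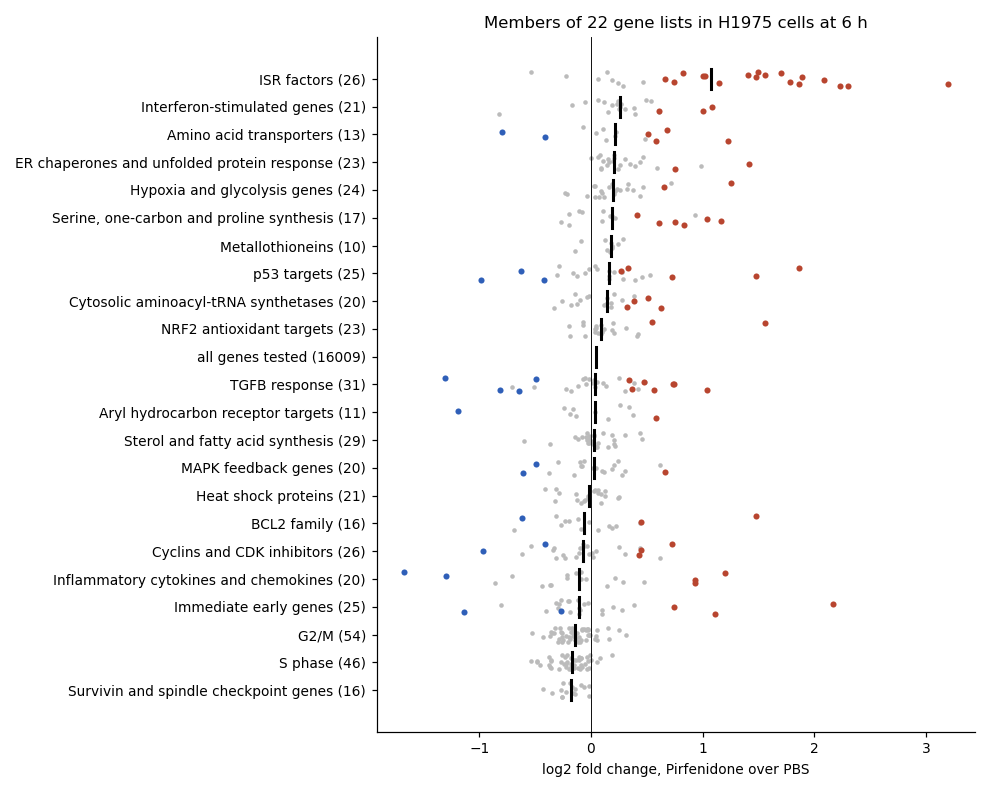
Log2 fold change of Pirfenidone over PBS at 6 h (x axis) of each tested member of 22 gene lists, ordered by the list median (black bar), with the number tested in brackets; the row of all genes shows its median only. Red and blue points passed an adjusted p of 0.05 as higher and lower, and grey points did not; the stress list stands at a median of 1.08 and all other medians lie between -0.18 and 0.26.

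Cytokines and chemokines changed one by one. Of 20 members 3 rose and 2 fell. CXCL3 and CXCL2, chemokines that draw neutrophils, rose by 1.20 ± 0.27 and 0.93 ± 0.25 (adjusted p of 0.0152 and 0.0362), and IL11, a cytokine of the IL6 family tied to fibrosis, rose by 0.93 ± 0.21 (adjusted p = 0.0152). CSF2 read -1.75, -2.57 and -2.61 with PBS and -3.81, -3.89 and -4.25 with Pirfenidone, and IL24 fell as above.

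Among 21 interferon-stimulated genes 3 rose and none fell, with a median of 0.26. IFIT2, which binds viral RNA, read 1.61, 1.03 and 0.69 with PBS and 2.77, 2.02 and 1.79 with Pirfenidone (1.08 ± 0.27, adjusted p = 0.029). OASL, of the oligoadenylate synthetase family, rose by 1.01 ± 0.19 (adjusted p = 0.00625) and IFIH1, a sensor of double-stranded RNA, by 0.61. For each of them the PBS array of run day 1 was the highest of the 3, and a second IFIT2 probe gave 1.29 (adjusted p = 0.117). Without the run-day block or without any single pair no member of the list passed. GBP1 had the lowest value, -0.82 (adjusted p = 0.0679).

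Genes of the cell cycle had shifted little at 6 h. None of 16 survivin and spindle checkpoint genes, of 46 S phase genes or of 54 G2/M genes passed limma's test in either direction. At an unadjusted p under 0.05 there were 0, 4 and 2 lower genes in the 3 lists and 0 higher ones. The medians were -0.18, -0.17 and -0.14, and they stayed between -0.28 and -0.13 under each scaling and without any pair. Of the 16 survivin and spindle genes 12 were lower on all 3 run days and none was higher on all 3, and of the S phase genes 33 were lower and 2 higher on all 3, against 22.7% and 33.6% of all genes. BIRC5, which encodes survivin, read 5.41, 4.65 and 4.61 with PBS and 4.98, 4.28 and 4.38 with Pirfenidone, a difference of -0.34 ± 0.33 (adjusted p = 0.598), and MKI67, the proliferation marker Ki67, gave -0.26 ± 0.32 (adjusted p = 0.693). In a fit of these 6 arrays alone the adjusted p was 0.0726 for BIRC5 and 0.0962 for MKI67. In RNA of whole cultures, fewer cells in a phase and less RNA per cell cannot be told apart.

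Some regulators of the cycle had moved. Of 26 cyclins, partners and inhibitors, 3 rose and 2 fell. CDC25A, the phosphatase that opens entry into S phase, read 0.30, 0.01 and 0.00 with PBS and -0.82, -0.81 and -0.95 with Pirfenidone, a change of -0.96 ± 0.21 (adjusted p = 0.0145). CCND1, cyclin D1, fell by 0.41 ± 0.10 (adjusted p = 0.0236). The inhibitors CDKN1A, CDKN1B and CDKN1C rose by 0.73, 0.45 and 0.43.

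Of 24 hypoxia and glycolysis genes, 2 rose, where 5.08% of all genes rose. These were ANKRD37, a hypoxia target, at 1.25 ± 0.11 (adjusted p = 3.16e-05), and the histone demethylase KDM3A at 0.65. VEGFA, the vascular growth factor, gave 0.47 ± 0.23 (adjusted p = 0.245). None of 29 genes of sterol and fatty acid synthesis passed (3 higher and 1 lower at an unadjusted p under 0.05), among them HMGCS1 at -0.08 ± 0.12 (adjusted p = 0.743).

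Part of the calls concerned transcripts near background. Of the 226 called probes, 146 were well above background on all 6 arrays, 43 on no PBS array and 18 on no Pirfenidone array. The last 2 counts share probes that were dim in both groups, for which neither a size nor a bound can be given. Where 1 group was dim, only a bound on the change can be given. These bounds ran from 4.17-fold down to 0.669-fold, so not every such call is a measured 2-fold change. The dim group was set to the lowest level among probes well above background or to its own level, whichever was higher. By this bound the non-coding transcript XLOC_l2_006196 was at least 4.17-fold higher (adjusted p = 0.000137), TNFSF4, the ligand OX40L, at least 2.56-fold higher (adjusted p = 0.0152), KIAA0040 at least 2.53-fold higher by this probe (adjusted p = 0.0198) and ROR2, a WNT receptor, at least 2.25-fold higher (adjusted p = 0.00164). A second KIAA0040 probe, well above background on all 6 arrays, gave 0.19 (adjusted p = 0.506). FST, the activin inhibitor follistatin, was at least 2.34-fold lower (adjusted p = 0.00587), but after normexp its log2 fold change was 0.75 and did not pass.

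The changes of 6 h were set against those of H1975 cells at 24 h, which have their own PBS arrays. Of the 226 probes, 94 also passed both limits in the same direction at 24 h (41.6% of the 226 and 13.4% of the 702 called at 24 h, themselves 2.95% of the probes tested), 83 of them higher and 11 lower. The 1 probe called in opposite directions, of PCSK6, was well above background on no Pirfenidone array at 6 h, and its bound gave no fall. The probes called higher at 6 h had a median of 1.24 at 6 h and of 1.0 at 24 h, and 162 of the 172 were above 0 at 24 h. Those called lower had medians of -1.29 and -0.41, and 42 of the 54 were below 0 at 24 h. Over all genes the median at 24 h was 0.03. The probes were chosen by their change at 6 h, so the choice alone can make their 6 h medians the larger ones. The stress list had a median of 1.22 at 24 h, with 23 rising members and 1 falling, where 13.2% of all genes rose and 10.9% fell. No member differed between the times by test. STC2 was 0.19 at 6 h and 1.29 at 24 h, a difference that was not called.

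The test of the difference between times called 45 probes (0.189%), 14 with the higher change at 6 h and 31 with the lower, a count that leaving out 1 array took to between 4 and 36. CYRIA, a regulator of actin, and SMIM5, a small membrane protein, rose at 6 h by 2.04 and 1.74 and were at 0.24 and -0.03 at 24 h (differences of 1.81 and 1.77, each adjusted p = 0.0177). EDN1, CCN2 and RTP3 fell at 6 h and stood at 0.06, 0.22 and 0.32 at 24 h, with differences of -1.50, -1.52 and -1.67. PTGS2, cyclooxygenase 2, was at -0.86 at 6 h (adjusted p = 0.07) and at 1.16 at 24 h (difference -2.02, adjusted p = 0.0398). The cell cycle lists stood apart in size: the median of the G2/M genes was -0.14 at 6 h and -1.11 at 24 h, that of the S phase genes -0.17 and -0.81, and that of the survivin and spindle genes -0.18 and -1.32. At 24 h, where 10.9% of all genes fell, 53 of the 54 G2/M genes and 40 of the 46 S phase genes fell. So did 15 of the 16 survivin and spindle genes. The difference between the times was called for none of these genes, but the spread behind this test includes the A549 arrays. Leaving the A549 pair of run day 1 at 24 h out of the fit raised the 45 calls to 208, 133 of them higher at 6 h. A fit of the 12 H1975 arrays gave 9. Whether cell cycle genes are among the 208 was not tested, so the lack of calls does not show equal changes at both times.

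**Figure D5:**
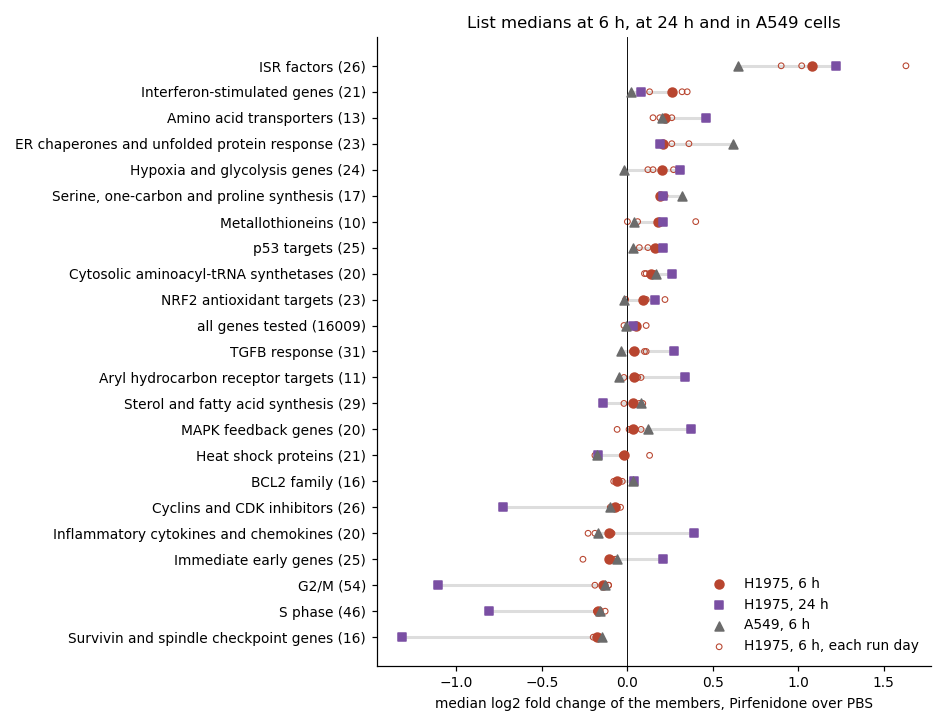
Median log2 fold change of Pirfenidone over PBS (x axis) of 22 gene lists and of all genes in H1975 cells at 6 h (red), in H1975 cells at 24 h (purple) and in A549 cells at 6 h (grey); open red circles give the 6 h median of each run day, and brackets give the number of genes. The stress list is highest in all 3 comparisons, at 1.08, 1.22 and 0.65, while the cell cycle lists are far below 0 at 24 h only.

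A549 cells at 6 h gave 77 called probes (0.323%), 18 of which were called in the same direction in H1975 cells (7.96% of the 226 and 23.4% of the 77). The median A549 change of the 172 probes called higher in H1975 was 0.27, and 138 of them were above 0. These probes were chosen by their change in H1975 cells, and the median over all genes in A549 cells was -0.01. The stress list had a median of 0.65 in A549 cells, with 9 rising members, where 1.07% of all genes rose. CHAC1 rose there by 2.29, DDIT3 by 2.19, ADM2 by 2.02 and ECM2 by 2.13, beside 3.20, 2.08, 2.23 and 1.91 in H1975 cells. GDF15 was at 0.25 in A549 cells against 1.78 in H1975 cells, and CTH at 0.24 against 1.40, and these were the 2 members of the list whose difference was called. The endoplasmic reticulum list had a median of 0.62 in A549 cells, with 8 rising members against the same 1.07%, but no member differed between the lines by test.

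The difference between the lines at 6 h was called for 67 probes (0.281%), 47 higher and 20 lower in H1975, and 49 of them were among the 226. GRAMD1B, FAM87A, SMIM5, C17orf107, CXCR3 and CREG2 rose in H1975 cells and lay between -0.39 and 0.44 in A549 cells. In the other direction, CCDC190 and KRTAP2-3 fell in H1975 cells and were at 0.07 and -0.59 in A549 cells, with differences of -2.01 and -1.79 (adjusted p of 0.000886 and 0.00763). FUT1, a fucosyltransferase, was at 0.18 in H1975 cells and rose by 2.21 in A549 cells, a difference of -2.03 (adjusted p = 0.0465). HOXB9, a homeobox factor, fell by 0.60 in H1975 cells and was at 0.55 in A549 cells.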

How the data were processed

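RNA of 24 samples was labelled with Cy3 and hybridised to Agilent 1-colour arrays, and the authors deposited the intensity per spot from Agilent Feature Extraction 11.5.1.1 (already background-subtracted within each array, with probe positions on hg19) and a table of processed log2 values, which were used as an alternative. Its values ran in the same direction as the scanner values and were centred per probe, with column medians from -0.163 to 0.156, and how its arrays were scaled is not stated. The log2 of the processed signal minus that of each array's 75th percentile over 43118 non-control spots was averaged by probe, giving 34127 probes, without outlier spots. A probe was tested where Feature Extraction marked it as well above background throughout 1 or more of the 8 groups. With limma 3.58.1 in R 4.3.3, 8 groups and the run day within each cell line as a block were fitted over all 24 arrays, with 12 residual degrees of freedom. Calls required a Benjamini-Hochberg adjusted p of at most 0.05 and a 2-fold change, and 6 h was also compared with 24 h and with A549 by interaction terms. An exact permutation test of 3 against 3 arrays cannot go below p = 0.1. The run day is a date recorded with each array whose meaning is not stated. It was kept as the block for the correlation of deviations from the group means. This was 0.82, 0.50 and 0.70 within run days and -0.48, 0.43 and -0.68 within replicate numbers. The H1975 arrays of a run day at 6 h also shared a slide, so these values cannot tell date from slide. At 24 h the H1975 pair of run day 3 was split between slides. The methods of the study name a moderated t-test with a familywise error rate by permutation, which was not run because 3 against 3 arrays cannot pass it. Symbols were updated through RefSeq (28942 probes with a gene). Named genes were the 15 largest increases and 10 largest decreases by gene among called probes detected on each of the 6 arrays and with groups that did not overlap, the extremes and called members of each list, a fixed set, the 5 largest differences each way from 24 h and from A549, and up to 5 bounds; second probes, DNAJB9, PDGFRB, PCSK6, IFNL1 and further called list members were named after their values were seen. Members and lists were chosen with earlier results of these data known. A gene of the fixed set is not reported here. The fit was checked on simulated data. Precision is limited by the number of arrays.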

Additional observations from a re-analysis of the deposited data

Results flagged for a closer look

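The response to Pirfenidone at 6 h in H1975 cells differed by an interaction test from that at 24 h in 45 probes and from that of A549 cells at 6 h in 67 probes. Each difference below is on the log2 scale, the change at 6 h in H1975 cells minus the other change.

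Against 24 h, the change was higher at 6 h for CYRIA (1.81), SMIM5 (1.77), BMP5 (1.63), MXD3 (1.62) and KLK6 (1.41). For BMP5, MXD3 and KLK6 the change at 6 h itself did not pass, and the transcripts fell at 24 h by 1.53, 1.19 and 1.61. The change was lower at 6 h for CCDC190 (-1.15), EDN1 (-1.50 and -1.27 at its 2 probes), CCN2 (-1.52), SPP1 (-1.53), GJB2 (-1.57), TREM1 (-1.63), RTP3 (-1.67) and PTGS2 (-2.02). SPP1, GJB2, TREM1 and PTGS2 rose at 24 h by 1.95, 1.58, 2.35 and 1.16 and did not pass at 6 h.

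Against A549 cells, the change was higher in H1975 cells for GRAMD1B (2.41), FAM87A (2.33), CYRIA (2.25), SMIM5 (2.0), C17orf107 (1.81), C11orf86 (1.76), CXCR3 (1.76), CREG2 (1.76), GDF15 (1.54), CTH (1.16), ID2 (1.11) and ANKRD37 (1.09). It was lower for MYEOV (-1.05), ARID3B (-1.07), EDN1 (-1.10 at 1 of its 2 probes), HOXB9 (-1.15), IL24 (-1.46 at both probes), RTP3 (-1.52), FGF1 (-1.62), KRTAP2-3 (-1.79), CCDC190 (-2.01) and FUT1 (-2.03). What sets these differences was not tested.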

How the results depend on the processing

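The count of 226 probes at 6 h was 117 with no run-day block, 147 for probes well above background on all arrays of the comparison, 52 after Holm adjustment, 1628 with no fold-change limit and 135 without the pair of run day 1. An ordinary t-test of each probe, paired by run day and with no pooled variance, gave 215 probes at an unadjusted p of 0.05 with a 2-fold change and 0 after Benjamini-Hochberg adjustment (5232 had an unadjusted p at or under 0.05 with no fold limit). The replicate block gave 156, the other alternatives 157 to 263, and leaving out 1 array 133 to 214, the lowest without PBS Rep1.

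The 45 differences from 24 h became 1 with no run-day block, 3 with the replicate block, 25 with the slide as a block, 9 in the 12 H1975 arrays alone, 208 without the A549 arrays of run 1 at 24 h, 4 with normexp, 3 with Holm, 89 with no fold limit, and 28, 2 and 6 without the pairs of run days 1, 3 and 4. Leaving out 1 array gave 4 to 36: 28, 10 and 4 without PBS Rep1, Rep2 and Rep3 at 6 h, 21, 24 and 14 without Pirfenidone Rep1, Rep2 and Rep3, 25, 10 and 23 without PBS Rep1, Rep2 and Rep3 at 24 h and 15 without Pirfenidone Rep3 at 24 h.

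The 67 differences from A549 became 8 with no run-day block, 19 with the replicate block, 101 without the A549 arrays of run 1 at 24 h, 11 with normexp, 37 with the stricter background filter, 11 with Holm, 114 with no fold limit, and 28 and 33 without the pairs of run days 3 and 4. Leaving out 1 array gave 41 to 66, with 41 without H1975 PBS Rep3, 41 and 43 without H1975 Pirfenidone Rep1 and Rep2, and 41 and 43 without A549 Pirfenidone Rep2 and Rep3.

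With normexp FGF1 turned to 0.29 and FST to 0.75. Of the 60 probes named and called, those of CHAC1, ADM2, JDP2, NUPR1, BBC3, GDF15, CTH, MYEOV, GRAMD1B and the brighter EDN1 probe passed under all 18 alternatives; CYP1A1, ATF3, IFIT2, OASL, FOSL1, EDN2 and KIAA0040 passed under 4 to 7. These 18 were other blocks, other sets of arrays, other scalings and Holm adjustment. The paired t-test with Benjamini-Hochberg adjustment, under which no probe passed, is not among them. The causes were not tested.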

Other observations

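IFNL1, a type III interferon, was not well above background on any PBS array and was at least 2.16-fold higher with Pirfenidone at 6 h (adjusted p = 0.000232 from limma), beside the 3 interferon-stimulated genes that rose. No interferon-stimulated gene of the list passed without the run-day block or without any single pair. IFNL1 was named after its values were seen, and whether these changes are related was not tested.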
